A study of Homo sapiens with 21 samples.

Results

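The genes described here are 55 genes of DNA replication and S phase, taken by symbol from the 58174 gene identifiers of the series and measured in all 21 libraries. They were grouped by role into licensing (10 genes), helicase activation (6), the clamp, its loader and single strand binding (8), polymerases, primase and Okazaki fragment processing (10), nucleotide supply (4), chromatin copying and histone mRNA (5), E2F, cyclin E and CDC25A (6), and checkpoint and fork repair (6). The cells were OCI-AML5, a human acute myeloid leukemia line, and the study asked what UM171, a small molecule that expands hematopoietic stem cells in culture, does to their transcripts. Unedited OCI-AML5 cells were kept in DMSO, the vehicle, or in UM171 for 6, 24, 48 or 72 h. OCI-AML5 cells carrying a guide RNA against EPCR, the surface receptor for protein C encoded by PROCR, were kept in DMSO or in UM171 for 24 h. Each of the 7 groups had 3 libraries.

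The labels of the unedited cells name no guide, whereas the study's supplement treats their DMSO and 24 h libraries as cells with a control guide against AAVS1, so they are called control cells below. The paper's text speaks of 3 independent sgEPCR clones and its methods of several guides, but no label ties a library number to a clone or names the guide. The DMSO libraries of the control cells are labelled 72 h while the study's supplement places them at time 0, and those of the sgEPCR cells are labelled 24 h. Time in culture and time in UM171 therefore cannot be told apart against DMSO. For the same reason, time in culture and genotype cannot be told apart between the DMSO libraries of the control and sgEPCR cells. The labels give UM171 at 500 nM and the paper another dose. The series' design text also says that RNA came from sorted subsets, without naming a gate.

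A cell copies its genome once per cycle. In G1, ORC, CDC6 and CDT1 load the MCM2-7 helicase onto origins, which licenses them. At the start of S phase, kinases, CDC45, GINS and MCM10 turn the loaded helicase into a working fork. Primase and DNA polymerase alpha then lay down primers, DNA polymerases epsilon and delta extend them on the PCNA clamp, and FEN1 and LIG1 finish the lagging strand. Ribonucleotide reductase and thymidine kinase supply the building blocks, and CAF-1, UHRF1 and DNMT1 copy nucleosomes and DNA methylation onto the new strands. Many of these genes are transcribed in late G1 and early S phase by E2F factors, which bind short GC-rich sites close to transcription starts. Because each library held the RNA of many cells, fewer cells in S phase and less RNA per S phase cell cannot be told apart in any value below.

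The promoters of the members carried E2F-type letters more often than promoters at large. RefSeq windows from 250 bases before to 50 bases after the annotated start (build GRCh38.p14) were found for 46 of the 55 members, with none for CCNE2, DSCC1, E2F8, GINS4, MCM4, MCM5, POLD3, RPA2 and RPA3. The letters TTTCCCGC, TTTCGCGC, TTTGCCGC or TTTGGCGC, read on either strand, occurred in the windows of 24 of these 46 members (52.2%), against 3.99% of the 27305 genes with a window and 3.31% of all 35116 windows. Of 25 genes of G2 and mitosis with a window, 3 held them. A palindromic stretch such as TTTGGCGCGAAA holds 2 overlapping matches, 1 on each strand, and such overlaps were joined when marked. The stretches below lie upstream of the annotated starts and show the matches in capitals. MCM6 and MCM3 stand for the helicase, PCNA for the clamp, E2F1 and CDC25A for the regulators, GINS2 for helicase activation, and POLA1 and POLE for polymerase genes whose transcripts moved in opposite directions at 24 h.
MCM6, chr2:135876513-135876608, minus strand: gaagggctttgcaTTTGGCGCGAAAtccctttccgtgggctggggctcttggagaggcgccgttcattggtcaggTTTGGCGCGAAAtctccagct
MCM3, chr6:52284893-52284932, minus strand: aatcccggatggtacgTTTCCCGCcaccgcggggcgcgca
PCNA, chr20:5126653-5126702, minus strand: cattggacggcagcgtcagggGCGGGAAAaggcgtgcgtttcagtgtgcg
GINS2, chr16:85688965-85689004, minus strand: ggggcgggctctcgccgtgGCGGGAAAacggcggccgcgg
POLA1, chrX:24693758-24693807, plus strand: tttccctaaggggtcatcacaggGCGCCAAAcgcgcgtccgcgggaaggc
POLE, chr12:132687343-132687382, minus strand: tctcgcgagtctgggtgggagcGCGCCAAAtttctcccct
E2F1, chr20:33686391-33686440, minus strand: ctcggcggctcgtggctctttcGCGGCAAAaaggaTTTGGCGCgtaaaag
CDC25A, chr3:48188433-48188482, minus strand: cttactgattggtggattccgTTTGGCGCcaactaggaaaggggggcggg

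The letters were found for 21 of 40 members with a window that were higher at 24 h (52.5%) and for POLE and UNG but not SLBP among the 3 that were lower then. Of the 6 members with a window that were over 2-fold higher at 24 h, POLA1 alone held the letters, and the window of RRM2 did not. CCAAT, the letters bound by NF-Y, occurred for 28 of the 46 members (60.9%), against 39.7% of all genes with a window, and for 20 of 25 G2 and mitosis genes. TTTGAA, the core of the CHR element of mitotic promoters, occurred for 3 of 46 members (6.52%) and for 17 of 25 G2 and mitosis genes (68%), against 18.2% of all genes. A match describes letters and is no evidence of binding.

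Totals ranged from 24286668 to 51540166 counts per library with a median of 33888914, and every member had at least 205 counts in every library, so that all 55 passed the filter on low counts. Mitochondrial genes took 7.73% to 13.5% of counts in 19 libraries, but 35.9% in the first library of sgEPCR cells in DMSO and 32.2% in the second library of sgEPCR cells in UM171. Both also had unusual levels of many members and are left out in the alternative values given below. Of the markers checked, PTPRC, CD33 and SPI1 were high (medians of 190.7, 150.1 and 235.4 TPM, a level corrected for gene length and library total), while MPO (3.38), CD34 (1.73) and KIT (0.01) were low. CD79A, a B cell gene, was present at 5.87 to 40.4 TPM and CD3D, a T cell gene, at up to 18.8 TPM, with the other 4 T and B cell markers at no more than 0.68 TPM. PROCR, the gene targeted in sgEPCR cells, measured 3.37, 4.3 and 3.38 TPM in control DMSO and 2.3, 4.53 and 3.93 TPM in sgEPCR DMSO. After 24 h of UM171 it reached 48.5 TPM in each control library and 8.94, 4.23 and 8.41 TPM in sgEPCR cells. A guide need not lower the transcript, so the DMSO values check no label.

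The members fell slightly by 6 h, rose by 24 h, stood between the 24 h and DMSO levels at 48 h by their median, and fell below DMSO at 72 h. Their summed level was 3162 to 3341 TPM in DMSO, 2923 to 3060 at 6 h, 4181 to 4322 at 24 h, 3274 to 3600 at 48 h and 2286 to 2399 at 72 h. The ranges at 6, 24 and 72 h did not overlap that of DMSO, and the range at 48 h did. In TPM rescaled without mitochondrial genes the sum at 48 h, 4160 to 4299, lay above the 3796 to 3887 of DMSO. The heat map shows all 55 members. By mean TPM over the 5 control cell groups, 46 members were highest at 24 h and 44 were lowest at 72 h. The places of the other groups varied from gene to gene.

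**Figure D1:**
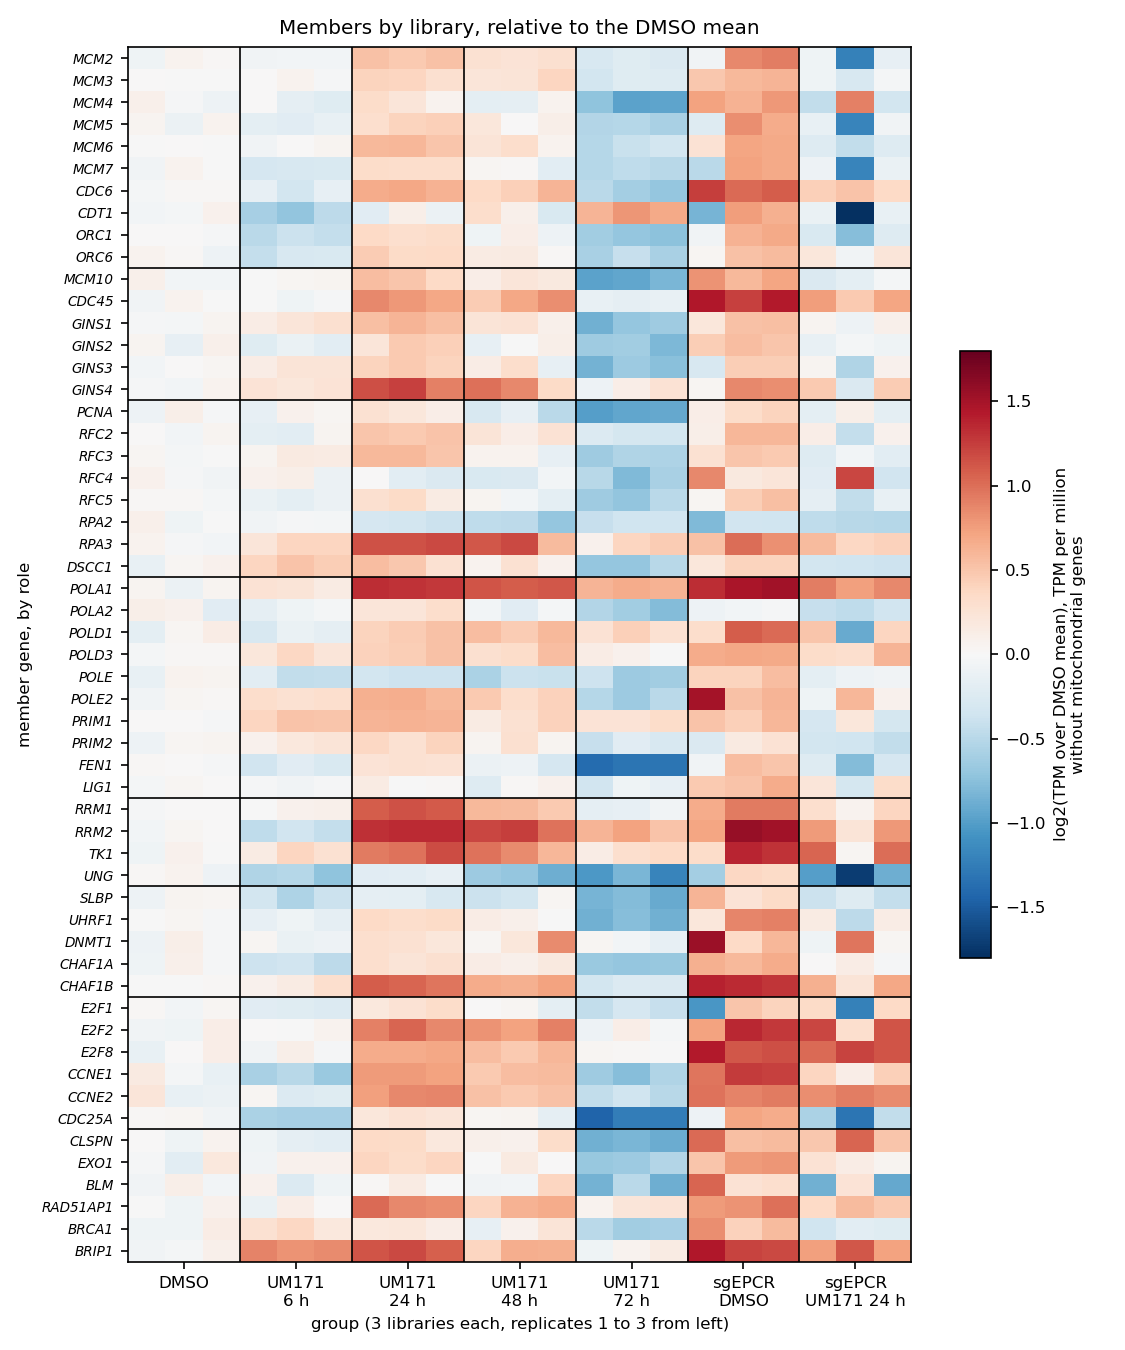
Each row is 1 of the 55 members and each column 1 of the 21 libraries; colour gives log2 of TPM (rescaled without mitochondrial genes) over the mean of the 3 DMSO libraries, saturating at 1.8 in either direction. Most rows are red at 24 h and in sgEPCR DMSO and blue at 72 h; the first sgEPCR DMSO column and the second sgEPCR UM171 column are the mitochondria-rich libraries.

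Changes were tested on the expected counts with edgeR's quasi-likelihood test and Benjamini-Hochberg adjustment over all genes tested, and are given as log2 fold change ± SE from 3 libraries per group. A gene was called at an adjusted p under 0.05. At 6 h, 35 of 55 members were lower than in DMSO, where 30.3% of all 16575 genes tested were lower. Another 3 were higher, BRIP1, PRIM1 and DSCC1, against 31.8% of all genes. This split depended on the scaling, with 10 higher and 30 lower under upper quartile scaling, 14 and 21 under total count scaling, and 7 and 16 with limma on log2(TPM + 1). Those settings moved the median of all genes by 0.12, 0.20 and 0.13 (log2). The share of all genes called under them is not given here, so these counts have no background. At the limits the study used, a change over 2-fold at an adjusted p under 0.0001, no member was higher at 6 h (background 6.78%) or lower (background 0.247%).

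At 24 h, 48 of 55 members were higher than in DMSO (background 34.9%) and 4, RPA2, POLE, UNG and SLBP, were lower (background 34.8%), with a median log2 fold change of 0.37 beside -0.01 for all genes tested. In TPM, 45 members had all 3 libraries above all 3 DMSO libraries, as did 35.6% of genes. At the study's limits 8 members were higher (background 9.03%), POLA1, RRM2, BRIP1, RPA3, TK1, RRM1, RAD51AP1 and GINS4. At 48 h, 27 were higher (background 37.1%) and 9 lower (background 35%), and the median was 0.12. POLA1 and RRM2 were then the members past the study's limits, both higher (background 11.7%).

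At 72 h the direction had turned, with 41 of 55 members lower than in DMSO (background 36.8%) and 5 higher (background 38.8%). The median log2 fold change was -0.62 beside 0.02 for all genes. All 3 libraries lay below all 3 DMSO libraries for 41 members (background 32.4%). The 8 members past the study's limits (background 5.8%) were CDC25A, FEN1, UNG, MCM4, MCM10, SLBP, CLSPN and PCNA. The 5 higher members were CDT1, POLA1, PRIM1, RRM2 and TK1.

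**Figure D2:**
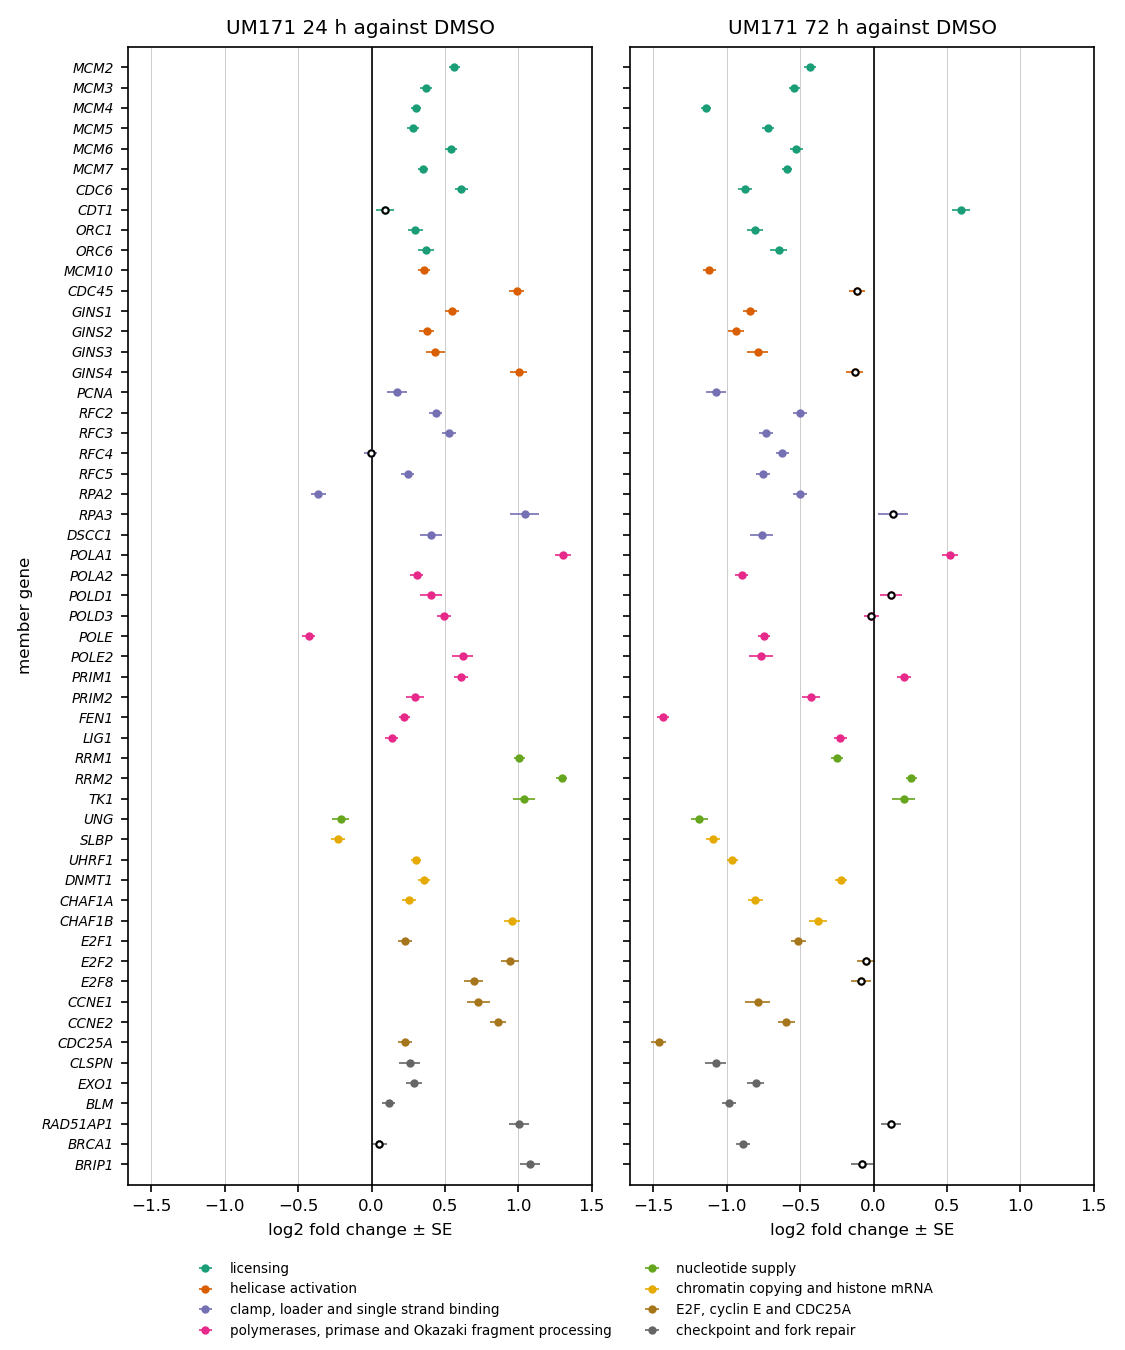
Log2 fold change ± SE of each of the 55 members against DMSO after 24 h (left) and 72 h (right) of UM171, coloured by role, with open circles for genes that were not called at an adjusted p under 0.05. At 24 h 48 members lie to the right of 0 and were called, from 0.12 for BLM to 1.30 for POLA1, whereas at 72 h 41 were called to the left of 0, down to -1.47 for CDC25A.

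Counts within the role groups have the backgrounds given above for the same time and direction. The licensing genes, CDT1 apart, moved together. At 6 h all 10 were lower than in DMSO under edgeR (MCM6 turned to the other sign under total count scaling), at 24 h 9 were higher, and at 72 h 9 were lower. The 6 subunits of the MCM2-7 helicase stayed close to each other, with log2 fold changes from 0.28 (MCM5) to 0.56 (MCM2) at 24 h. MCM4, a helicase subunit and the most abundant licensing transcript, measured 335, 319 and 303 TPM in DMSO, 311, 284 and 275 at 6 h, 401, 372 and 334 at 24 h, 279, 284 and 299 at 48 h and 182, 159.8 and 160.4 at 72 h. Its 72 h libraries all lay below every other control library, at a change of -1.14 ± 0.04 (adjusted p = 1.95e-14), and its 6 h and 24 h libraries overlapped those of DMSO, with 24 h at 0.30 ± 0.03. MCM2 measured 85.3, 97.2 and 94.1 TPM in DMSO, 85.3, 88.8 and 88.6 at 6 h, 133, 129 and 134 at 24 h, 109, 109 and 101 at 48 h and 71.3, 77 and 74.9 at 72 h. Each 24 h library of MCM2 lay above, and each 72 h library below, all DMSO libraries, with changes of 0.56 ± 0.04 (adjusted p = 1.42e-09) and -0.43 ± 0.04 (adjusted p = 3.12e-08). At 72 h the subunits spread further apart, from -1.14 for MCM4 to -0.43 for MCM2, the other 4 lying between -0.72 and -0.53.

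CDT1, which loads the helicase together with CDC6, parted from the other licensing genes. It measured 22.1, 23.1 and 24.8 TPM in DMSO, 14.9, 14.3 and 16.8 at 6 h, 20.2, 25.4 and 21.8 at 24 h, 28.6, 24.8 and 17.4 at 48 h and 33.8, 39.5 and 36.5 at 72 h. Its 6 h libraries lay below DMSO and its 72 h libraries above, so that it fell by 0.76 on the log2 scale at 6 h and stood at 0.60 ± 0.06 (adjusted p = 1.28e-07) at 72 h, while CDC6, ORC1 and ORC6 stood at -0.88, -0.81 and -0.65. CDC6, whose protein recruits MCM to ORC, had the largest rise of the licensing genes at 24 h (0.61 ± 0.04). Only CDT1 among the 10 was not called at 24 h (0.09 ± 0.06, adjusted p = 0.214). CDT1 and CDC6 were chosen for description after their values were seen.

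All 6 genes of helicase activation were higher at 24 h, with a median of 0.49, and 4 were lower at 72 h. CDC45, the helicase's companion in the active fork, measured 28.4, 32.1 and 30.1 TPM in DMSO, 29.1, 28.6 and 29.8 at 6 h, 54.8, 52.2 and 49.4 at 24 h, 40.8, 49 and 48.2 at 48 h and 26, 26.4 and 26.8 at 72 h. Its 24 h and 48 h libraries were all above DMSO, at 0.99 ± 0.05 (adjusted p = 1.99e-11) and 0.72 ± 0.05, and at 72 h its libraries lay just below DMSO in TPM with a change that was not called (-0.11 ± 0.05, adjusted p = 0.0588). MCM10, needed to start the loaded helicase, measured 41.5, 38.5 and 38.5 TPM in DMSO, 38, 40.3 and 40.8 at 6 h, 57.9, 56.2 and 51.3 at 24 h, 42.2, 46.1 and 40.2 at 48 h and 19.1, 20.2 and 21.7 at 72 h. It lay above DMSO in each 24 h library and below it in each 72 h library, with a change at 72 h of -1.12 ± 0.05 (adjusted p = 5.38e-13). Of the GINS subunits, which act as 1 complex, GINS4 rose most at 24 h (1.00 ± 0.06) and was not called at 72 h (-0.13 ± 0.06), while GINS1, GINS2 and GINS3 rose by 0.55, 0.37 and 0.43 and stood at -0.84, -0.94 and -0.79 at 72 h.

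Among the clamp, loader and single strand binding genes 6 of 8 were higher at 24 h and 7 of 8 lower at 72 h. PCNA, the sliding clamp and the second most abundant member after MCM4 by mean TPM, measured 312, 369 and 334 TPM in DMSO, 295, 356 and 346 at 6 h, 411, 394 and 370.1 at 24 h, 274, 304 and 216 at 48 h and 161, 173 and 173 at 72 h. All 24 h libraries were above the highest DMSO value, 1 of them barely, and all 72 h libraries far below the lowest, but the rise was small (0.17 ± 0.07, adjusted p = 0.0257) next to the fall (-1.07 ± 0.07, adjusted p = 1.38e-10). The rise of PCNA was not called when DMSO replicate 1 or 3, or UM171 24 h replicate 1 or 2, was left out. The clamp loader subunits RFC2, RFC3 and RFC5 rose by 0.44, 0.53 and 0.25 at 24 h, whereas RFC4 stood at -0.00 ± 0.04. On the opposite strand, exons of RFC4 overlap those of EIF4A2 and exons of RFC5 those of WSB2.

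The subunits of replication protein A, the heterotrimer that coats single stranded DNA, moved apart. RPA3, the smallest subunit, measured 34.7, 33.9 and 33.1 TPM in DMSO, 38.2, 44.4 and 44.3 at 6 h, 75, 75.6 and 77.9 at 24 h, 72.3, 76.8 and 45 at 48 h and 33.9, 43.3 and 45.3 at 72 h. It lay above DMSO in every 6 h, 24 h and 48 h library with 1.04 ± 0.10 (adjusted p = 4.71e-08) at 24 h, and was not called at 72 h (0.13 ± 0.10, adjusted p = 0.253). RPA2, the middle subunit, was chosen for description after its values were seen and measured 108, 99.8 and 104 TPM in DMSO, 96.7, 103 and 101 at 6 h, 84.6, 83.6 and 79.9 at 24 h, 74.9, 74.8 and 57.7 at 48 h and 73.6, 78.8 and 79.3 at 72 h. Every library of RPA2 from 24 h on lay below every DMSO library, with -0.36 ± 0.05 (adjusted p = 4.03e-06) at 24 h and -0.50 ± 0.05 at 72 h. The ratio of RPA3 to RPA2 in TPM was 0.318 to 0.339 in DMSO and 0.887 to 0.975 at 24 h. Exons of RPA3 overlap those of UMAD1 on the opposite strand in GENCODE 44, and pseudogenes named after RPA2 (3) and RPA3 (2) exist, so that reads may be shared.

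**Figure D3:**
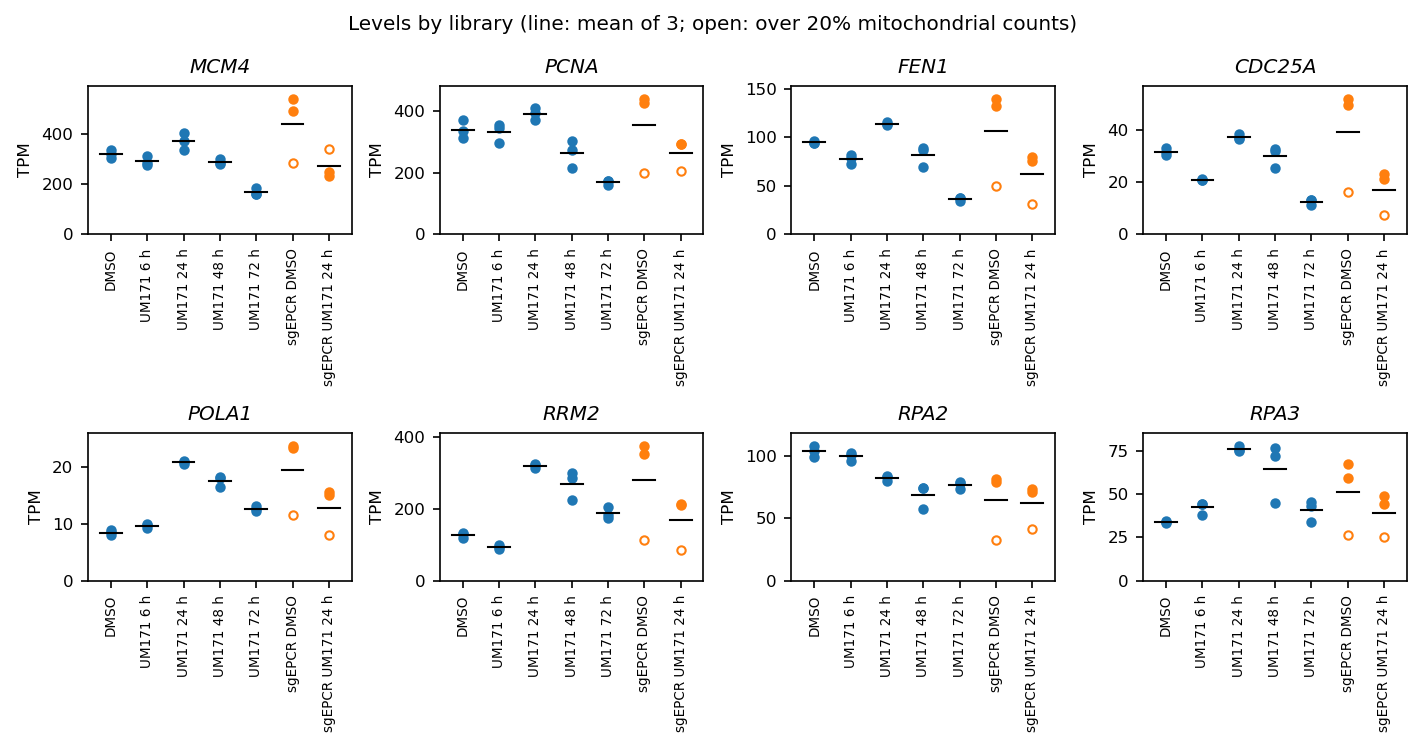
TPM of 8 members in each of the 21 libraries; points are libraries (open for the 2 with over 20% mitochondrial counts), bars the mean of 3, blue for control and orange for sgEPCR cells. MCM4, PCNA, FEN1 and CDC25A are highest of the control groups at 24 h and lowest at 72 h, POLA1 and RRM2 stay above DMSO at 72 h, and RPA2 declines while RPA3 rises.

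Of the polymerase, primase and Okazaki fragment genes 9 of 10 were higher at 24 h and 6 were lower at 72 h. FEN1, the flap nuclease that trims Okazaki fragments and the most abundant of this group, measured 94, 96.1 and 94.2 TPM in DMSO, 72.1, 81.9 and 78.5 at 6 h, 112, 115 and 114 at 24 h, 87.1, 88.6 and 68.8 at 48 h and 34.4, 36.9 and 36.9 at 72 h. It was above DMSO in each 24 h library, by 0.22 ± 0.04, and at 72 h lay below 40 TPM in every library, a change of -1.43 ± 0.04 (adjusted p = 7.61e-15). FEN1 shares exonic sequence with FADS2 on the same strand. POLA1, the catalytic subunit of DNA polymerase alpha, measured 8.52, 7.96 and 8.8 TPM in DMSO, 9.76, 9.93 and 9.32 at 6 h, 21.1, 20.9 and 20.4 at 24 h, 18.2, 18 and 16.5 at 48 h and 12.2, 13.1 and 12.7 at 72 h. All of its libraries from 6 h on were above DMSO in TPM, the change on the count scale being not called at 6 h (0.05 ± 0.06, adjusted p = 0.471), largest at 24 h (1.30 ± 0.05, adjusted p = 1.18e-12) and still 0.52 ± 0.05 (adjusted p = 1.17e-07) at 72 h.

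POLA2, the accessory subunit of polymerase alpha, followed the other members instead, at 0.31 ± 0.04 at 24 h and -0.90 ± 0.04 at 72 h. The ratio of POLA1 to POLA2 in TPM went from 0.172 to 0.231 in DMSO to 0.427 to 0.512 at 72 h. The subunits of polymerase epsilon, the leading strand polymerase, parted in a similar way. POLE, its catalytic subunit, was chosen after its values were seen and measured 53.6, 63.2 and 62.5 TPM in DMSO, 50.7, 43.9 and 44.1 at 6 h, 47.6, 46.5 and 46.3 at 24 h, 39.7, 45.5 and 40.8 at 48 h and 43.5, 37 and 37.5 at 72 h. Every UM171 library of POLE lay below every DMSO library, at -0.43 ± 0.04 (adjusted p = 9.21e-08) at 24 h and -0.75 ± 0.04 at 72 h. POLE2, its second subunit, rose by 0.62 ± 0.07 at 24 h and fell to -0.77 ± 0.08 at 72 h, which took the ratio of POLE2 to POLE from 0.280 to 0.303 in DMSO to 0.562 to 0.587 at 24 h and back to 0.263 to 0.317 at 72 h. PRIM1, the catalytic primase, stayed higher at 72 h (0.21 ± 0.05) and PRIM2, the large primase subunit, was lower (-0.43 ± 0.06). Exons of PRIM1 overlap those of NACA on the same strand and HSD17B6 on the opposite strand, so that reads may be shared.

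The nucleotide supply group, in which UNG was placed although it supplies no nucleotides, had the highest median change at 24 h of the 8 groups (1.02). RRM2, the regulatory subunit of ribonucleotide reductase, measured 120.0, 132 and 129 TPM in DMSO, 89.5, 100.3 and 94.4 at 6 h, 315, 324 and 324 at 24 h, 288, 299 and 225 at 48 h and 183, 204 and 176 at 72 h. It lay below DMSO in each 6 h library and above DMSO in every later one, with -0.62 ± 0.04 (adjusted p = 7.17e-10) at 6 h, 1.30 ± 0.04 (adjusted p = 1.93e-14) at 24 h and 0.26 ± 0.04 (adjusted p = 8.76e-06) at 72 h. RRM1, the large subunit, rose by 1.01 ± 0.04 at 24 h and stood at -0.25 ± 0.04 at 72 h, so that the ratio of RRM2 to RRM1 went from 2.00 to 2.08 in DMSO to 1.43 to 1.53 at 6 h and 3.06 to 3.74 at 72 h. TK1, cytosolic thymidine kinase, rose by 1.04 ± 0.08 at 24 h. UNG, which removes uracil from DNA, was lower at every time, from -0.21 ± 0.06 at 24 h to -1.19 ± 0.06 at 72 h. The median of these 4 genes at 72 h (-0.02) changed sign under upper quartile and total count scaling and with limma on TPM. Pseudogenes named after RRM2 number 3, after UNG 2 and after PCNA 3.

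In the group of chromatin copying and histone mRNA, 4 of 5 genes were higher at 24 h and all 5 were lower at 72 h. DNMT1, the maintenance DNA methyltransferase, measured 184, 219 and 199.9 TPM in DMSO, 198, 185 and 188 at 6 h, 247, 244 and 232 at 24 h, 202, 230.2 and 326 at 48 h and 194, 189 and 176 at 72 h. Its 24 h libraries were above DMSO (0.36 ± 0.04, adjusted p = 5.99e-07), its 72 h libraries overlapped DMSO (-0.22 ± 0.04, adjusted p = 9.55e-05), and at 48 h replicate 3 stood above the other 2. SLBP, which binds the stem loop of replication dependent histone mRNA, measured 118, 134 and 132 TPM in DMSO, 97.9, 87.2 and 97.4 at 6 h, 114, 114 and 106 at 24 h, 96.7, 102 and 117 at 48 h and 68, 72.8 and 66.6 at 72 h. Every UM171 library of SLBP lay below every DMSO library, with -0.23 ± 0.05 (adjusted p = 3.62e-04) at 24 h and -1.09 ± 0.05 (adjusted p = 1.47e-12) at 72 h. CHAF1B, a subunit of the histone chaperone CAF-1, measured 8.37, 8.64 and 8.82 TPM in DMSO, 8.8, 9.56 and 10.6 at 6 h, 18.2, 17.9 and 16.9 at 24 h, 13.4, 13.4 and 12.8 at 48 h and 6.5, 7.06 and 6.96 at 72 h. It was above DMSO in each 24 h library (0.96 ± 0.06, adjusted p = 1.60e-10) and below DMSO in each 72 h library (-0.38 ± 0.06, adjusted p = 2.64e-05). CHAF1A, its partner, and UHRF1, which brings DNMT1 to hemimethylated DNA, rose less at 24 h (0.26 and 0.30) and fell further at 72 h (-0.81 and -0.96).

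All 6 genes of E2F, cyclin E and CDC25A were higher at 24 h, at a median of 0.71, and 4 were lower at 72 h. CDC25A, the phosphatase that activates CDK2, measured 31.7, 33.1 and 30.7 TPM in DMSO, 20.7, 21.1 and 20.9 at 6 h, 36.6, 38.5 and 37.2 at 24 h, 32, 32.9 and 25.6 at 48 h and 11.1, 13.1 and 13 at 72 h. It was below DMSO in every 6 h and 72 h library and above it in every 24 h library, with -0.74 ± 0.05 (adjusted p = 1.19e-09), -1.47 ± 0.05 (adjusted p = 4.57e-14) and 0.23 ± 0.05 (adjusted p = 2.84e-04), and its 72 h fall was the largest of the 55 members. CCNE1, a cyclin that drives entry into S phase, measured 12.1, 10.9 and 10.1 TPM in DMSO, 7.16, 7.8 and 6.97 at 6 h, 18.9, 19 and 18.5 at 24 h, 15.2, 16.2 and 14.8 at 48 h and 6.73, 6.36 and 7.36 at 72 h. It fell by 0.85 on the log2 scale at 6 h, the largest fall of any member at that time, and rose by 1.57 ± 0.08 from 6 h to 24 h without overlap between those libraries. CCNE2, the second E-type cyclin, measured 24.8, 20.1 and 20.4 TPM in DMSO, 21.6, 18.4 and 18.6 at 6 h, 36.5, 39.9 and 40.2 at 24 h, 30.9, 30.2 and 28.1 at 48 h and 15.2, 16.6 and 15 at 72 h. Its 24 h libraries were above and its 72 h libraries below all DMSO libraries, at 0.86 ± 0.05 (adjusted p = 3.12e-10) and -0.60 ± 0.06 (adjusted p = 4.88e-08). The transcription factors E2F1, E2F2 and E2F8 rose by 0.23, 0.95 and 0.70 at 24 h, and at 72 h E2F1 was lower (-0.51 ± 0.05) while E2F2 (-0.05 ± 0.06) and E2F8 (-0.08 ± 0.07) were not called.

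Among the checkpoint and fork repair genes 5 of 6 were higher at 24 h and 4 lower at 72 h. BRCA1, a repair protein that protects stalled forks, measured 33.8, 34.8 and 40.0 TPM in DMSO, 42.3, 46.7 and 41.1 at 6 h, 41.2, 41.8 and 39.6 at 24 h, 32, 38 and 38.1 at 48 h and 24.3, 22.9 and 23.1 at 72 h. Its 6 h libraries lay above DMSO in TPM without being called (0.11 ± 0.05, adjusted p = 0.0672), it was not called at 24 h (0.05 ± 0.05, adjusted p = 0.329), and each 72 h library lay below all DMSO libraries (-0.89 ± 0.05, adjusted p = 2.95e-11). BRIP1, the helicase partner of BRCA1, measured 4.49, 4.71 and 5.13 TPM in DMSO, 8.57, 8.39 and 8.55 at 6 h, 10.5, 10.9 and 10.1 at 24 h, 6.18, 7.51 and 6.66 at 48 h and 4.29, 4.85 and 5.12 at 72 h. It was above DMSO in each 6 h and 24 h library and overlapped DMSO at 72 h, with 0.63 ± 0.07 (adjusted p = 8.82e-07), 1.08 ± 0.07 (adjusted p = 3.96e-10) and -0.08 ± 0.07 (adjusted p = 0.333). RAD51AP1, a DNA repair protein, rose by 1.00 ± 0.07 at 24 h, and CLSPN, EXO1 and BLM, a fork checkpoint adaptor, an exonuclease and a helicase, stood at -1.08, -0.80 and -0.98 at 72 h.

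**Figure D4:**
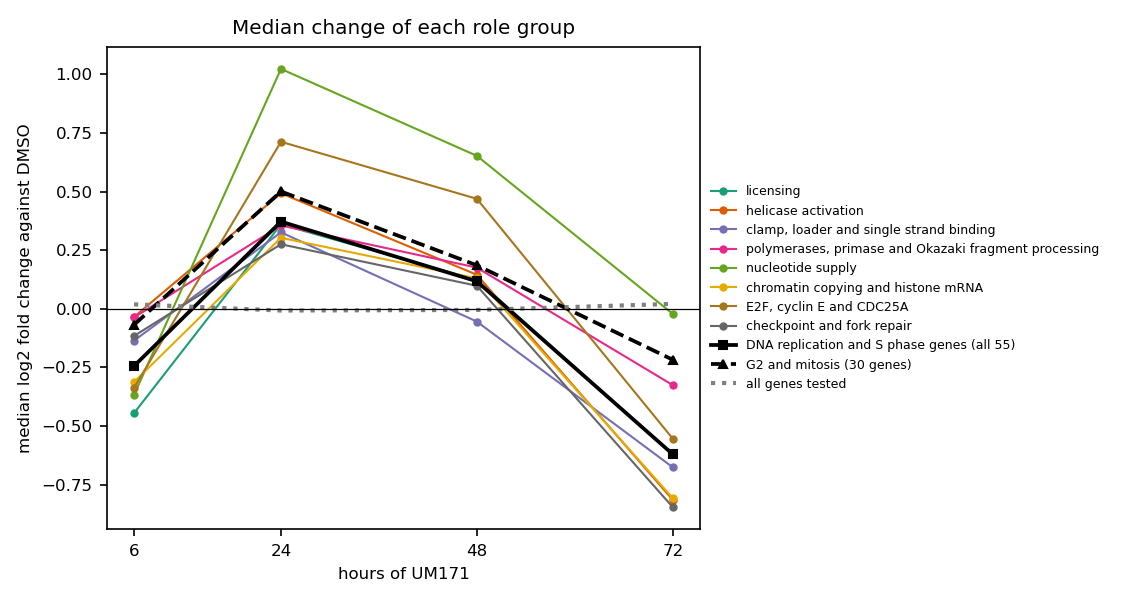
Median log2 fold change against DMSO (y axis) over 6, 24, 48 and 72 h of UM171 (x axis) for the 8 role groups, for all 55 members (black squares), for 30 G2 and mitosis genes (dashed) and for all genes tested (dotted). All 8 groups peak at 24 h, from 0.28 for checkpoint and fork repair to 1.02 for nucleotide supply, and all lie below 0 at 72 h, nucleotide supply at -0.02.

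The steps between consecutive UM171 times were tested in the same fit of 15 libraries, which shares its scaling and spread with DMSO. From 6 to 24 h, 51 of 55 members rose (background 32.5%) and RPA2 fell (background 34.6%), with a median of 0.69; POLE was among the risers and changed sign under upper quartile and total count scaling. RRM2 moved furthest (1.92 ± 0.04), and 9 members were past the study's limits, all higher (background 3.61%). From 24 to 48 h no member rose and 49 fell (background 22%), by small amounts with a median of -0.28. In 1 fit of all 21 libraries 28 fell, a count given without its background. From 48 to 72 h 51 fell (background 29.2%) and CDT1 rose (background 28%), with a median of -0.73. At the study's limits 12 fell (background 0.76%). CDC25A (-1.40 ± 0.05), CCNE1 (-1.28 ± 0.08) and FEN1 (-1.26 ± 0.04) fell most in this step.

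In sgEPCR cells the members ran the other way at 24 h of UM171. Most were higher in sgEPCR than in control cells in DMSO, and lower in UM171 than in DMSO within sgEPCR cells. The DMSO libraries are labelled 24 h for sgEPCR and 72 h for control cells, so the responses rest on DMSO libraries of different labelled times. These comparisons came from a fit of 12 libraries and 15901 genes, in which replicates spread more than in the time course (common biological coefficient of variation of 0.187 against 0.0564). In DMSO, 44 of 55 members were higher in sgEPCR than in control cells (background 17.4%) and RPA2 was lower (background 16.3%), at a median of 0.68. At the study's limits 10 were higher (background 1.43%). Without the 2 mitochondria-rich libraries 53 were higher (background 30.3%) and RPA2 lower (background 30%). The number was lower under total count scaling (18 higher, with the median of all genes moved by -0.25) and with limma on log2(TPM + 1) (3 higher). No background is given for these settings. In plain TPM all 3 sgEPCR libraries exceeded all 3 control libraries for 10 members (background 4.13%), and in TPM rescaled without mitochondrial genes for 40 (background 15.4%).

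After 24 h of UM171, 48 of 55 members were lower than in DMSO within sgEPCR cells (background 25.1%) and none was higher (background 27%), at a median of -0.83. At the study's limits 10 were lower (background 3.33%). All 55 were lower without the mitochondria-rich libraries (background 36.4%). Under limma on log2(TPM + 1) the number was 6, a count given without its background. In rescaled TPM the groups did not overlap for 34 members (background 13%), and in plain TPM for 5 (background 4.89%). The control cells in the same fit had 34 members higher (background 24.5%) and 2 lower (background 20.2%).

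The difference of these 2 responses, tested as an interaction, was called below 0 for 47 of 55 members (background 23.1%) and above 0 for none (background 21.9%). Its median was -1.28 beside -0.02 for all genes. At the study's limits 22 members differed (background 4.17%). Without the 2 mitochondria-rich libraries 54 members were called below 0 (background 35.6%). With limma on log2(TPM + 1) the count was 11, given without its background. The 8 members that were not called were CDT1, CLSPN, E2F1, LIG1, POLD1, POLE, RFC4 and RPA2. RPA2 differed by 0.10 ± 0.10 (adjusted p = 0.482), its fall in sgEPCR cells changing sign under limma, and POLE differed by -0.21 ± 0.18 (adjusted p = 0.383). The high mitochondrial share was confined to 1 library of each sgEPCR group, the other sgEPCR libraries holding 8.09% to 9.21%. Its part in these differences was not tested beyond the values without those 2 libraries.

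**Figure D5:**
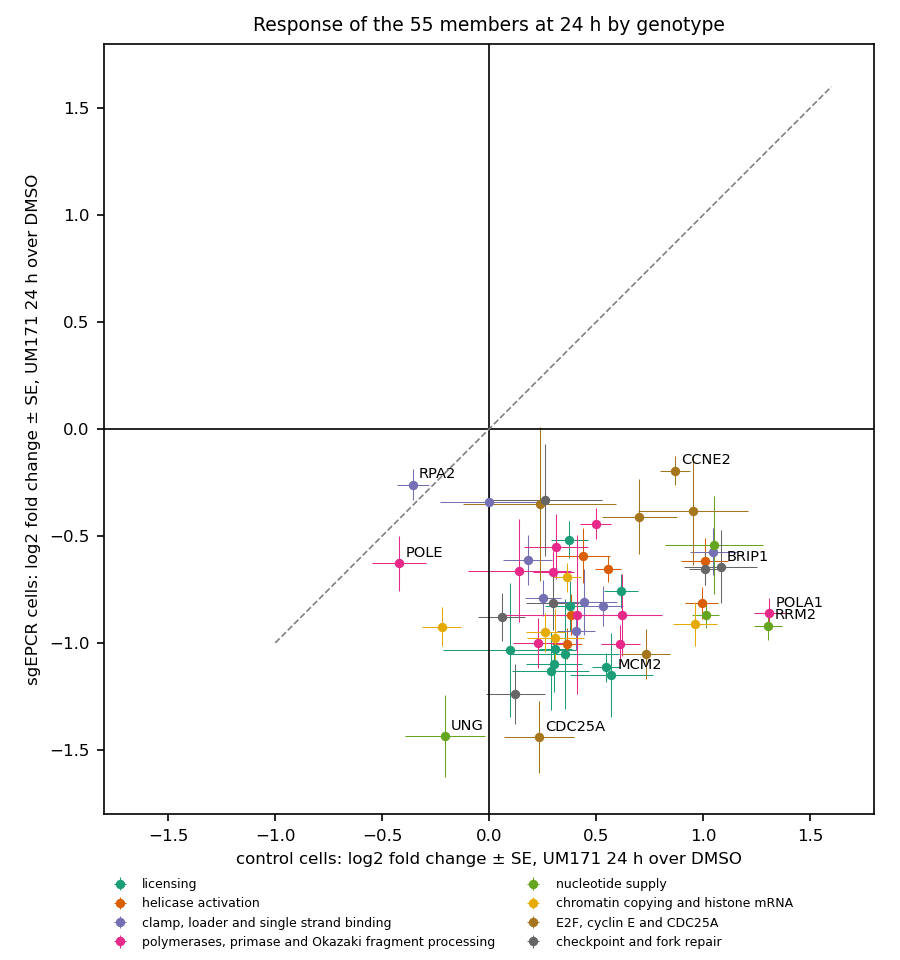
Log2 fold change ± SE of UM171 24 h over DMSO for the 55 members in control cells (x axis) and sgEPCR cells (y axis), both from the fit of 12 libraries; the dashed line marks equal responses. All points lie below 0 on the y axis and most to the right of 0 on the x axis; RPA2 and POLE lie nearest to the dashed line, and RRM2 and POLA1 (-2.22 and -2.17 in the difference) farthest from it.

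RRM2 and POLA1 had the largest differences of response. RRM2 measured 112, 376 and 355 TPM in sgEPCR cells in DMSO and 211, 84.8 and 213 in sgEPCR cells in UM171. The mitochondria-rich libraries were the lowest of their groups, and the other 2 sgEPCR DMSO libraries exceeded all control DMSO libraries and were higher than any sgEPCR UM171 library, the change with UM171 being -0.92 ± 0.07. The difference of response was -2.22 ± 0.09 (adjusted p = 1.28e-07), and -2.30 without the mitochondria-rich libraries. POLA1 measured 11.5, 23.4 and 23.6 TPM in sgEPCR cells in DMSO and 15.6, 7.96 and 14.9 in sgEPCR cells in UM171. Its difference was -2.17 ± 0.10 (adjusted p = 1.96e-07), and -2.14 without those libraries, with sgEPCR DMSO above control DMSO in each of the 3 libraries (1.66 ± 0.07).

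The helicase genes differed as well. MCM2, with the largest difference of the licensing genes, measured 47.8, 167 and 171 TPM in sgEPCR cells in DMSO and 85.3, 22.4 and 81.2 in sgEPCR cells in UM171. The mitochondria-rich libraries were far below their partners, and the difference was -1.72 ± 0.28 (adjusted p = 5.11e-04), or -1.72 without them. MCM4 measured 285, 489 and 537 TPM in sgEPCR cells in DMSO and 231, 339 and 248 in sgEPCR cells in UM171. Here the mitochondria-rich UM171 library was the highest of its group in TPM rather than the lowest. In expected counts, before scaling by library total, MCM4 was lowest in that library (8519 against 12067 and 14510). Its difference was -1.34 ± 0.11, or -1.44 without those libraries. CDC45 measured 44.4, 70.8 and 80.3 TPM in sgEPCR cells in DMSO and 49.95, 23.7 and 48.6 in sgEPCR cells in UM171. All sgEPCR DMSO libraries of CDC45 exceeded those of control DMSO (1.63 ± 0.08, adjusted p = 3.68e-07), and the difference of response was -1.81 ± 0.11 (adjusted p = 7.50e-07). MCM10 measured 37.4, 59.3 and 63.8 TPM in sgEPCR cells in DMSO and 32.4, 19.9 and 37.8 in sgEPCR cells in UM171, and its difference was -1.37 ± 0.10.

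PCNA measured 199, 426 and 438 TPM in sgEPCR cells in DMSO and 293, 206 and 292 in sgEPCR cells in UM171, and its difference of -0.79 ± 0.16 (adjusted p = 0.00261) was smaller than the median of the members. RPA3 measured 26.4, 67.7 and 59.2 TPM in sgEPCR cells in DMSO and 49.1, 24.9 and 44 in sgEPCR cells in UM171. The rise of RPA3 in control cells and its fall in sgEPCR cells (-0.57 ± 0.11) gave a difference of -1.62 ± 0.15 (adjusted p = 1.49e-05). FEN1 measured 49.3, 139 and 132 TPM in sgEPCR cells in DMSO and 79.2, 31.1 and 75.4 in sgEPCR cells in UM171, with a difference of -1.23 ± 0.16. For FEN1 and PCNA alike, the sgEPCR libraries that were not rich in mitochondrial counts lay above control DMSO when kept in DMSO. Those kept in UM171 lay below it.

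CHAF1B measured 12.2, 21.8 and 20.8 TPM in sgEPCR cells in DMSO and 13.1, 5.73 and 13.6 in sgEPCR cells in UM171. Each sgEPCR DMSO library lay above control DMSO, and the difference of response was -1.87 ± 0.15 (adjusted p = 4.03e-06). DNMT1 measured 316, 256 and 298 TPM in sgEPCR cells in DMSO and 186, 222 and 200.2 in sgEPCR cells in UM171. Its mitochondria-rich libraries were the highest of each group in TPM alone. In expected counts, before scaling by library total, the same libraries were the lowest of each group. These counts were 10630 against 18992 and 24290 in DMSO, and 7773 against 13976 and 16836 in UM171. The difference of response of DNMT1, tested on the counts, was -1.06 ± 0.09. SLBP measured 106, 151 and 160.2 TPM in sgEPCR cells in DMSO and 95.5, 61.6 and 92.8 in sgEPCR cells in UM171. All sgEPCR UM171 libraries of SLBP lay below all sgEPCR DMSO libraries (-0.92 ± 0.09), with a difference of response of -0.70 ± 0.13 (adjusted p = 0.00123).

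CCNE1 measured 11.7, 26.4 and 25.5 TPM in sgEPCR cells in DMSO and 14.2, 6.78 and 14.5 in sgEPCR cells in UM171. Its sgEPCR DMSO libraries overlapped control DMSO only through the mitochondria-rich library, and the difference of response was -1.78 ± 0.16 (adjusted p = 1.27e-05). CCNE2 measured 23.2, 40.5 and 41.1 TPM in sgEPCR cells in DMSO and 38, 23.4 and 38.3 in sgEPCR cells in UM171. The fall of CCNE2 in sgEPCR cells was the smallest of the 55 members (-0.19 ± 0.07, adjusted p = 0.0365) and was lost when sgEPCR DMSO replicate 1 or 3 or sgEPCR UM171 replicate 1 or 3 was left out, and under upper quartile and total count scaling. CDC25A measured 16.2, 51.9 and 49.6 TPM in sgEPCR cells in DMSO and 21.1, 7.26 and 23 in sgEPCR cells in UM171, the largest fall of any member in sgEPCR cells (-1.44 ± 0.17, adjusted p = 3.61e-05), and all 3 UM171 libraries lay below the lowest control DMSO library. UNG fell by 1.44 as well. The difference of response of CDC25A was -1.67 ± 0.23.

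BRIP1 measured 7.06, 11.1 and 10.7 TPM in sgEPCR cells in DMSO and 7.79, 5.87 and 7.72 in sgEPCR cells in UM171. All sgEPCR DMSO libraries were above control DMSO (1.46 ± 0.17, adjusted p = 1.13e-04), the UM171 libraries were lower than 2 of the 3 DMSO libraries, and the difference was -1.73 ± 0.24 (adjusted p = 2.08e-04). BRCA1 measured 35, 48.1 and 52.6 TPM in sgEPCR cells in DMSO and 27.5, 17.9 and 30.5 in sgEPCR cells in UM171 and differed by -0.94 ± 0.16, with its sgEPCR UM171 libraries all below the DMSO libraries of both genotypes. In UM171 itself, 39 of 55 members were lower in sgEPCR than in control cells (background 22.2%) and none was higher (background 20.8%), at a median of -0.55. Under limma on log2(TPM + 1) 7 were lower, a count given without its background. Without the mitochondria-rich libraries 47 were lower (background 35.9%) and 3 higher (background 32.4%).

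Ordered by mean TPM rescaled without mitochondrial genes, sgEPCR DMSO was the highest of the 7 groups for 39 of 55 members and UM171 24 h in control cells for 13. The lowest group was UM171 72 h in control cells for 37 members. The summed level of the members on that scale was 3796 to 3887 in control DMSO, 4889 to 5095 in control cells at 24 h, 5342 to 6118 in sgEPCR DMSO and 3769 to 4077 in sgEPCR cells in UM171. Neighbouring groups whose ranges overlapped were control DMSO and sgEPCR UM171, so that neither was above the other.

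Other genes of replication, a list of 67 that share these pathways, had medians of the same sign as the members and nearer to 0. At 24 h 44 were higher (background 34.9%) and 12 lower (background 34.8%), at a median of 0.26. At 72 h 10 were higher (background 38.8%) and 48 lower (background 36.8%), at a median of -0.44. The largest changes at 72 h were falls of ATRIP, the partner of the ATR kinase (-1.53 ± 0.06, adjusted p = 3.81e-13), TIPIN, a fork protection factor (-1.25 ± 0.08, adjusted p = 1.60e-10), and POLE3, a histone fold subunit of polymerase epsilon (-1.23 ± 0.06, adjusted p = 1.82e-12). ATRIP went from 17.0 ± 2.09 TPM (SD, n = 3) in DMSO to 6.19 ± 0.27 at 72 h, and POLE3 from 176.8 ± 2.76 to 79.0 ± 5.80. In the difference of responses 51 of 67 were called below 0 (background 23.1%) and 4 above (background 21.9%). The largest were those of the repressor E2F5 (-2.38 ± 0.19, adjusted p = 5.16e-06), the cohesin acetyltransferase ESCO2 (-1.86 ± 0.24, adjusted p = 1.04e-04) and the S and G2 cyclin CCNA2 (-1.86 ± 0.15, adjusted p = 4.48e-06).

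Genes of G2 and mitosis, 30 in all, were listed for comparison. At 24 h 27 were higher (background 34.9%) and none lower (background 34.8%), at a median of 0.50 beside 0.37 for the members. At 72 h 5 were higher (background 38.8%) and 20 lower (background 36.8%), and their median of -0.22 lay nearer to 0 than the -0.62 of the members. In sgEPCR cells 26 were lower in UM171 than in DMSO (background 25.1%), at a median of -0.92. A difference of response below 0 was called for 27 (background 23.1%), at a median of -1.27. The difference between the lists was not tested.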

How the data were processed

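RNA-seq of OCI-AML5 cells was deposited as gene-level expected counts and TPM for each of 21 libraries. Per the labels, libraries were stranded polyA libraries, and the submitters' processing notes name CASAVA 1.8.2, Trimmomatic 0.35, STAR 2.5.1b, RSEM 1.2.28 and GRCh38, whereas the paper's methods name another quantifier. RSEM's expected counts, as the authors deposited them, share out reads between overlapping and near-identical genes, and whether strand was used in counting was not given in the sources used here. Exons of 9 members overlap another gene on the same strand, among them DNMT1 (S1PR2) and CHAF1B (MORC3). Those of 21 members overlap a gene on the opposite strand, among them CCNE2 (INTS8), and not every overlap is named above. The deposited TPM values are scaled to each library's total, so the mitochondrial share lowers all other genes. Rescaling without mitochondrial genes did not level the mitochondria-rich libraries, which on the TPM scale stayed apart in both directions. In sgEPCR DMSO, rescaled MCM7 was 156.5 in that library against 362.3 and 352.3, and DNMT1 686.7 against 302.4 and 356.6. In sgEPCR UM171, MCM7 was 96.58 against 206.7 and 201.5, and DNMT1 461.3 against 223.5 and 241. The excess of DNMT1 was seen in TPM alone, its expected counts in those libraries (10630 and 7773) being the lowest of each group.

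The estimates were made whole by rounding and analysed in edgeR 4.0.16 in R 4.3.3 (TMM scaling, filterByExpr, quasi-likelihood F test, Benjamini-Hochberg adjustment over all genes tested). The time course was fitted on 15 libraries and 16575 genes and the genotypes on 12 libraries and 15901 genes. SE was taken as the log2 fold change over the square root of F. TPM served for levels. The 45 pseudoautosomal Y entries were summed with their X copies. Each result was also computed with limma 3.58.1 on log2(TPM + 1), DESeq2 1.42.0, other scalings and filters, a replicate block, leaving out libraries, and the limits of the study (adjusted p under 0.0001 and over 2-fold). The count test was tested on simulated data with 100 genes changed at each of 2 fold sizes. For the 72 h comparison it recovered 100 of 100 at a log2 change of 1, and for the difference of responses 32 of 100 at 1 and 100 of 100 at 2.

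The members and lists were chosen with earlier results of these data known. Values in every library are given, per role group, for the member with the highest mean TPM, that with the largest change against DMSO at any time, and that with the largest difference of response. The 3 other replication genes with the largest change at 72 h and in the difference of responses were also named. Whether libraries of a group came from separate cultures is not given by the labels, so p-values measure the spread between these libraries, which may be technical. Same-numbered libraries of the time course did not deviate together (30 pairs, correlations from -0.083 to 0.078), so numbers were not used as pairs. In sgEPCR cells the deviations were strongly correlated, from -0.695 to 0.526 for same-numbered and from -0.663 to 0.751 for other pairs. The highest value joined the mitochondria-rich libraries, so the sgEPCR libraries shared a structure that the numbers do not mark.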

Additional observations from a re-analysis of the deposited data

Results flagged for a closer look

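The 24 h response to UM171 differed between sgEPCR and control cells for 47 members, by edgeR's test of the difference itself. The members described by library whose differences were largest in their role groups were MCM2 (-1.72 log2), CDC45 (-1.81), RPA3 (-1.62), POLA1 (-2.17), RRM2 (-2.22), CHAF1B (-1.87), CCNE1 (-1.78) and BRIP1 (-1.73). Without the 2 mitochondria-rich libraries these were -1.72, -1.75, -1.64, -2.14, -2.30, -1.76, -1.77 and -1.74 in the same order. The labels place the DMSO libraries of the genotypes at different times in culture, which cannot be told apart from genotype.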

How the results depend on the processing

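Under the limits of the study the number of members changed against DMSO was 0, 8, 2 and 8 at the 4 times in order. It was 9 from 6 to 24 h, 0 from 24 to 48 h and 12 from 48 to 72 h, 10 for sgEPCR cells in UM171 against DMSO, 10 and 0 for the genotypes in DMSO and UM171, and 22 for the difference of responses. With limma on log2(TPM + 1) it was 23 at 6 h, 6, 3, 7 and 11 for those 4 genotype results, 18 for the genotypes in DMSO under total count scaling, and 28 from 24 to 48 h with all 21 libraries in 1 fit. The share of all genes called under limma, total count scaling and the fit of all 21 libraries is not given. Whether the members or genes at large lost calls therefore cannot be told from these counts.
Leaving out each library gave 36 to 40, 49 to 52, 32 to 36 and 45 to 48 members at the 4 times, 50 to 53, 44 to 51 and 51 to 53 in the 3 steps, 46 to 50 in sgEPCR cells, 41 to 52 and 32 to 43 between genotypes in DMSO and UM171, and 47 to 51 for the difference.
With the replicate number as a block, counts were 38, 52, 34 and 46 at the 4 times, 51, 48 and 52 in the steps, 43 in sgEPCR cells, 36 and 31 between genotypes and 46 for the difference. The numbers did not mark pairs (in sgEPCR cells 1 of 3 correlations exceeded 0.1). Neither the counts with the block nor those with a library left out have a background here, as the share of all genes called is not given.
Single values changed sign at 6 h for MCM10 (0.0059, limma), CDC45 (0.0802, total count), POLA1 (-0.00933 to 0.0772 with each library left out, the lowest without DMSO replicate 2) and CHAF1B (0.147 with limma, 0.0661 under upper quartile scaling, 0.153 under total count scaling, 0.0200 with at least 10 counts in every library). PCNA between genotypes in DMSO was -0.0186 with limma, and CCNE2 in UM171 was -0.252 with limma, -0.0829 under total count scaling, -0.0203 without both mitochondria-rich libraries and -0.0247 to 0.0747 with each library left out, the lowest without sgEPCR UM171 replicate 2. Among other called members, RRM1 and EXO1 changed sign at 6 h under total count scaling and with limma, MCM6 at 6 h and POLE from 6 to 24 h under total count scaling, POLE also under upper quartile scaling, and, with limma, CDT1 at 48 h, RPA2 in sgEPCR cells and GINS3 between genotypes in DMSO. The cause was not tested. Of 3383 alternative values, 3172 kept direction and side of the threshold, 162 lost the call and 37 gained it. At this spread, differences of response of 1 log2 unit can be missed.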

Other observations

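Some genes of nucleotide supply outside the 55 members moved the other way. They were chosen after their values were seen. TK2, the mitochondrial thymidine kinase, fell to -1.06 ± 0.07 (log2, adjusted p = 6.51e-10, edgeR) at 24 h in control cells while TK1 rose, and its difference of response in sgEPCR cells was 1.46 ± 0.30 (adjusted p = 0.00275). RRM2B, the p53-responsive small subunit of ribonucleotide reductase, was not called at 24 h in control cells (-0.03 ± 0.08, adjusted p = 0.756) and rose by 0.96 ± 0.12 (adjusted p = 6.06e-05) in sgEPCR cells, where RRM2 fell.

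ASF1A, a histone chaperone that hands histones to CAF-1, rose by 1.49 ± 0.06 (adjusted p = 5.05e-13) at 24 h, more than any of the 55 members, and was still at 0.55 ± 0.06 at 72 h. TFDP2, a dimerization partner of E2F factors, rose by 1.23 ± 0.06 (adjusted p = 1.24e-11) at 24 h and stood at 1.16 ± 0.06 (adjusted p = 1.50e-11) at 72 h, when most members were lower than in DMSO. In sgEPCR cells TFDP2 was not called after UM171 (-0.12 ± 0.10, adjusted p = 0.313).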
